A study of Mus musculus with 30 samples.

Results

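Tendon labelled as a 12-day unstimulated control was set against naive tendon. The question was how these controls of a stimulation experiment differed from tendon labelled naive. The samples were 3 libraries of mouse Achilles tendon labelled unstimulated at day 12 and 3 libraries of naive Achilles tendon labelled day 0, picked by their titles out of 30 libraries of tendon and calcaneus, the heel bone into which this tendon inserts. Every group of the series, controls included, has the same genotype, written Acta1,Ai32 in the labels. Acta1 is the actin gene of skeletal muscle and Ai32 an allele that lets Cre switch on a light-gated channel joined to a yellow fluorescent protein. The labels do not say which Acta1 allele was used or in which cells it acts. The labels used here give neither age, sex nor strain. Nor do they say what the mice behind the unstimulated samples underwent, so that elapsed time, age and any handling cannot be told apart. They also do not say whether libraries of a group came from separate animals, so the p-values cover the spread among these libraries and no more, and part of that spread may be technical. Gene counts summed to 29158100, 26371031 and 30334424 in 12-day unstimulated libraries 1, 2 and 3, and to 44566322, 35985025 and 33920435 in naive libraries 1, 2 and 3.

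Tendon is built mainly from type I collagen fibrils, laid down by tendon fibroblasts (tenocytes) that express the transcription factors Scx and Mkx and the membrane glycoprotein tenomodulin. Proteoglycans and glycoproteins between the fibrils set fibril width and sliding, and lysyl oxidases and hydroxylases crosslink and modify the collagen chains. The Achilles tendon joins calf muscle at one end and, through a fibrocartilage zone, the calcaneus at the other, so that a dissected sample can hold muscle, cartilage and bone as well as tendon proper.

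The labelled tissue was checked against marker lists first. All 17 tendon fibroblast markers were measured in these libraries, which also held a large muscle part. The 33 muscle fibre genes took 27.0% to 28.3% of the counts of the 12-day unstimulated libraries, against 17.7% to 22.1% in the naive libraries. Their mean log2 CPM (read counts scaled by library size and TMM factor) overlapped between the groups, at 11.65 to 11.99 in 12-day unstimulated and 11.57 to 11.67 in naive libraries. The reporter was read in every library: the eYFP sequence had 1850, 1980 and 1670 CPM in 12-day unstimulated tendon and 1300, 1140 and 1050 CPM in naive tendon (log2 fold change 0.66 ± 0.17 SE, adjusted p = 0.0212). Reads of eYFP and eGFP cannot be told apart with certainty, since the sequences are near-identical. By edgeR the eGFP entry was not called (adjusted p = 0.0679), nor was Cre (adjusted p = 0.0961). The eYFP call held in 2 of the 6 fits that left out a library. On the first principal component of the 15 tendon libraries, which held 32.4% of the variance, 12-day unstimulated libraries lay at 15.9 to 42.5 and naive libraries at -56.1 to -35.

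Among matrix, cartilage, bone-cell and macrophage genes more were lower than higher, and among fast muscle fibre and glycolysis genes more were higher than lower, in 12-day unstimulated than in naive tendon. Of 17108 genes tested with edgeR, 1397 were higher (8.17% of those tested) and 1812 lower (10.6%) in 12-day unstimulated tendon at an adjusted p under 0.05. In 1386 of the higher (8.1% of all tested) and 1795 of the lower genes (10.5%) the libraries of the groups did not overlap in CPM; with or without a call, 22.3% of all genes lay wholly higher and 25.4% wholly lower in this sense. The falls were the larger changes: 784 of the lower genes but 202 of the higher genes changed by at least 1 on the log2 scale, and the medians were -0.88 and 0.49. The median over all genes tested was -0.03. These counts rested heavily on single libraries. Without 12-day unstimulated library 2, 43 genes were higher and 42 lower, and without naive library 3, 65 were higher and 142 lower. All 3209 genes called with every library kept their direction in both fits. Of them 3198 and 3176 had an unadjusted p under 0.05, while 85 and 204 were still called. The genes were picked with the left-out libraries in, so this is no separate check of them. The other libraries mattered less: the counts were 398 higher and 1026 lower without naive library 2, 564 and 764 without 12-day unstimulated library 1, 782 and 1118 without 12-day unstimulated library 3, and 1204 and 1405 without naive library 1. With the mean log2 level of muscle fibre genes as a covariate, 932 genes were higher and 1201 lower. That level overlapped between the groups where the share of counts did not, and muscle genes under test enter it. Fits with this covariate therefore cannot show what remains once muscle content is taken out.

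**Figure D1:**
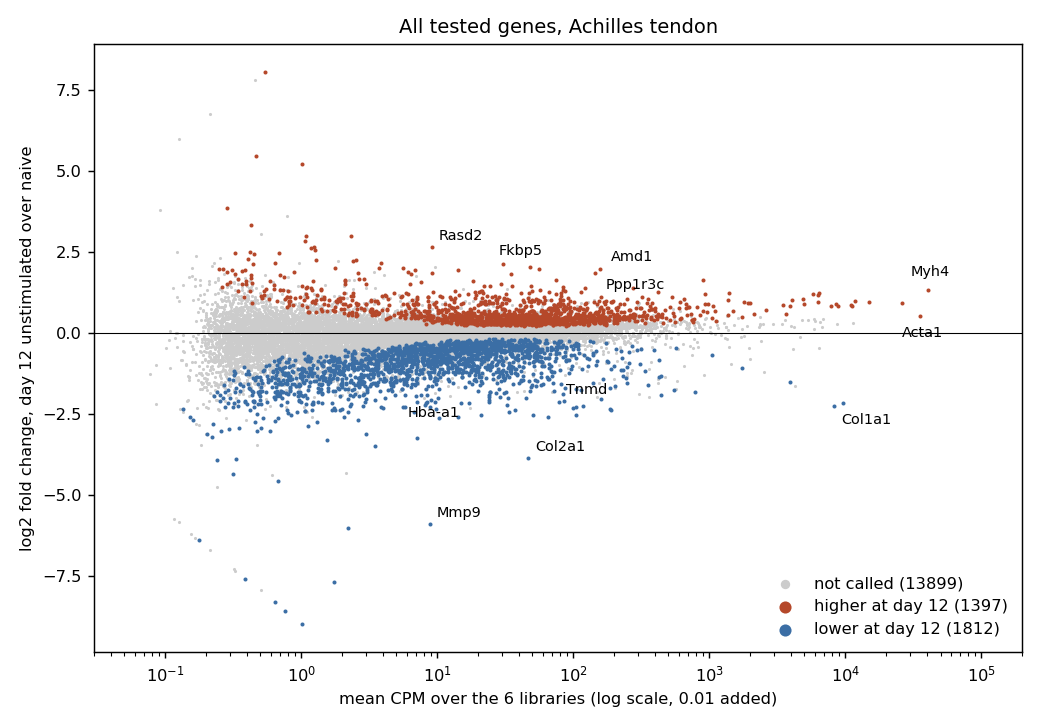
Each point is 1 of the 17108 tested genes of Achilles tendon: mean CPM over the 6 libraries (log axis) against the log2 fold change of 12-day unstimulated over naive tendon, coloured where the adjusted p was under 0.05. Of the lower genes 784, and of the higher genes 202, lie at least 1 from 0; fitted changes beyond about -6 belong to genes with almost no counts in 12-day unstimulated tendon and depend on the prior count.

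The transcription factors and surface markers of tendon fibroblasts fell. Of the 17 tendon fibroblast markers, 12 were lower and 0 higher, with a median log2 fold change of -1.76. Scx, the basic helix-loop-helix factor of tendon progenitors (chr15:76457452-76459458, GRCm38), had 13.0, 8.14 and 11.5 CPM in 12-day unstimulated tendon and 25.3, 26.2 and 40.7 CPM in naive tendon (log2 fold change -1.5 ± 0.26 SE, adjusted p = 0.00943). The homeobox factor Mkx, which drives collagen genes in tendon, had 3.14, 3.31 and 5.40 CPM in 12-day unstimulated tendon, against 15.9, 9.75 and 22.8 CPM in naive tendon (-2.03 ± 0.50, adjusted p = 0.0205). For both factors every 12-day unstimulated library lay below every naive library. Tnmd, which encodes tenomodulin (chrX:133850980-133865577), had 20.6, 20.1 and 46.0 CPM in 12-day unstimulated and 148, 78.0 and 154 CPM in naive tendon (-2.13 ± 0.63, adjusted p = 0.0359). Library 3 was the highest of the 12-day unstimulated libraries for Tnmd and Mkx, and library 2 the lowest of the naive ones. The matricellular glycoprotein gene Thbs4 changed by -1.76 ± 0.53 (adjusted p = 0.0396) and the fibril-binding proteoglycan gene Fmod by -1.84 ± 0.58 (adjusted p = 0.0441). Comp, a pentameric glycoprotein that binds collagen, stood at -1.72 ± 0.61 and did not pass (adjusted p = 0.0653). Leaving out 1 library changed the count of lower markers to 0 without 12-day unstimulated library 2, 2 without library 1 of that group, and 1, 5 and 8 without naive libraries 3, 1 and 2; it was 3 with the muscle covariate, while the median stayed between -2.14 and -1.60.

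In bulk tissue, fewer cells of a type and less RNA per cell cannot be told apart. The tendon fibroblast list as a whole took 0.453% to 1.21% of the counts in 12-day unstimulated libraries and 2.08% to 5.00% in naive libraries, most of it from the type I collagen genes. The tendon sheath and synovium list, which holds the lubricin gene Prg4 and hyaluronan synthases, had 1 member higher and 4 lower of 9, with a median of -1.70. Prg4 itself, at 51.6, 51.7 and 94.7 CPM in 12-day unstimulated and 296, 200 and 204 CPM in naive tendon, stood at -1.82 ± 0.60 and missed the threshold (adjusted p = 0.0509). The groups did not overlap, as the rule that named this gene requires. No sheath gene was called without 12-day unstimulated library 2 or without naive library 3.

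**Figure D2:**
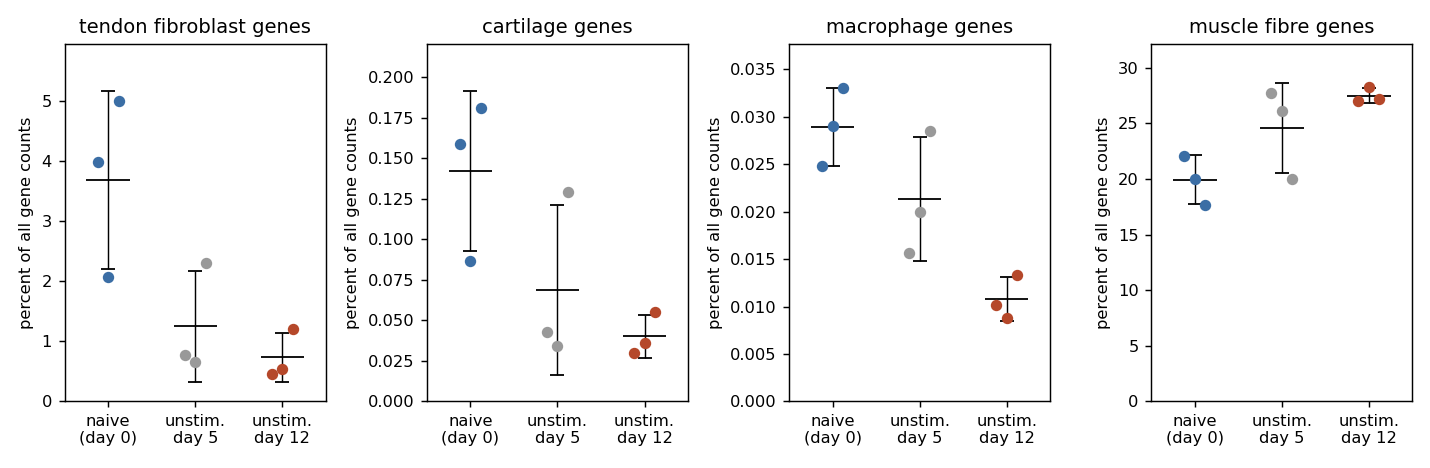
Percent of all gene counts taken by 4 marker lists in each tendon library of the naive (day 0), 5-day and 12-day unstimulated groups; points are libraries, the bar is the mean and the whiskers 1 SD (n = 3). The 12-day unstimulated libraries lie below every naive library for tendon fibroblast, cartilage and macrophage genes and above every naive library for muscle fibre genes, and 5-day library 3 lies nearer to the naive libraries than the other two do in each panel.

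Fibrillar collagen genes moved together. Of the 11 genes of this class, 10 were lower and 0 higher (median -1.34). Col1a1, the major chain of type I collagen (chr11:94936224-94953042), had 1610, 2120 and 4760 CPM in 12-day unstimulated tendon, against 14200, 7330 and 19400 CPM in naive tendon (log2 fold change -2.27 ± 0.61 SE, adjusted p = 0.0262). Its partner chain Col1a2 (chr6:4504814-4541544) had 1990, 2700 and 5880 CPM in 12-day unstimulated and 19300, 8090 and 19900 CPM in naive tendon (-2.16 ± 0.67, adjusted p = 0.0414). The groups did not overlap for either chain, but 12-day unstimulated library 3 stood well above the other two: without it the mean of that group was 1860 instead of 2830 CPM for Col1a1 and 2350 instead of 3530 CPM for Col1a2. Col3a1, the type III chain that is prominent in young and healing tendon, changed less, by -1.09 ± 0.34 (adjusted p = 0.0416). The type V chain Col5a1, which limits fibril width, changed by -1.13 ± 0.27 (adjusted p = 0.0189), and Col27a1 by -1.12 ± 0.23 (adjusted p = 0.0132). Col24a1 was the 1 member of the class that was not called. No fibrillar collagen was called without 12-day unstimulated library 2 or without naive library 3; 4 were called without 12-day unstimulated library 1, 6 without naive library 1 and 5 with the muscle covariate.

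Other collagens split more widely, with 14 of 32 lower, 2 higher and a median of -0.82. Col8a1, a network-forming short chain, was the most reduced of those named by the rule, with 16.6, 10.6 and 16.9 CPM in 12-day unstimulated and 60.1, 93.4 and 106 CPM in naive tendon (-2.55 ± 0.38, adjusted p = 0.00559). It was called in all 6 fits that left out a library. Col16a1, Col13a1 and Col15a1 changed by -1.80 ± 0.38, -1.29 ± 0.25 and -1.03 ± 0.22. The 2 higher members were Col7a1, the chain of anchoring fibrils, at 1.05, and Col19a1 at 2.23, both picked out here after their values were seen. Leaving out a library left 1 lower without 12-day unstimulated library 2 or naive library 3 and 5 without 12-day unstimulated library 1.

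The enzymes and chaperones that modify, fold and crosslink collagen fell with it: 23 of 34 were lower, 0 were higher and the median was -1.16. P4ha3, a subunit of prolyl 4-hydroxylase, had 0.830, 0.424 and 0.348 CPM in 12-day unstimulated and 2.25, 2.87 and 3.28 CPM in naive tendon (-2.38 ± 0.36, adjusted p = 0.00526). Loxl1, a lysyl oxidase that also acts on elastin, changed by -1.47 ± 0.26 (adjusted p = 0.00979). The procollagen chaperone Fkbp10 changed by -1.5 ± 0.30 (adjusted p = 0.0125) and P3h4, part of a lysyl hydroxylase complex, by -1.26 ± 0.26 (adjusted p = 0.0128). The call of P4ha3 held without any 1 library; the count for the list was 1 without 12-day unstimulated library 2, 2 without naive library 3, 9 without 12-day unstimulated library 1 and 15 without naive library 1.

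Matrix glycoproteins gave the lowest median of the matrix lists. Of these genes 18 of 29 were lower, 0 were higher and the median was -1.72. Tnc encodes tenascin-C, an anti-adhesive glycoprotein of loaded and healing tendon (chr4:63959785-64047015). It had 13.1, 11.9 and 30.2 CPM in 12-day unstimulated tendon, against 101, 100 and 136 CPM in naive tendon (-2.61 ± 0.43, adjusted p = 0.00855). Postn, the matricellular periostin, had 66.6, 38.7 and 74.6 CPM in 12-day unstimulated and 196, 336 and 422 CPM in naive tendon (-2.40 ± 0.47, adjusted p = 0.0119). Ccn4, a secreted Wnt target, changed by -2.24 ± 0.36 (adjusted p = 0.00679). Matn4, a matrilin, changed by -2.55 ± 0.45 (adjusted p = 0.0101), and its naive mean was 22.4 instead of 35.9 CPM without naive library 3. All of these had groups that did not overlap, which the rule for the 15 largest falls already required of Tnc, Postn and Matn4. In 23 of the 29 listed genes every 12-day unstimulated library lay below every naive library, as in 25.4% of all genes tested. Of the list, 1 gene was called without 12-day unstimulated library 2, 4 without naive library 3 and 9 without 12-day unstimulated library 1.

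Small leucine-rich proteoglycans, which coat fibrils, had 6 of 15 lower and a median of -1.34, with Bgn, the gene of biglycan, at -1.63 ± 0.35 (adjusted p = 0.0144) and Aspn at -1.35 ± 0.29 (adjusted p = 0.014). Elastic fibre genes had 11 of 18 lower, 0 higher and a median of -1.15. The microfibril gene Fbn1 changed by -1.72 ± 0.29 (adjusted p = 0.00913) and Fbn2, its fetal counterpart, by -2.44 ± 0.48 (adjusted p = 0.0119). Mfap4 changed by -2.54 ± 0.50 (adjusted p = 0.0119), with a naive mean of 113 instead of 178 CPM without naive library 3. Among proteases and their inhibitors, 10 of 25 were lower and 1 was higher: Timp1, an inhibitor of metalloproteinases, changed by -1.79 ± 0.25 (adjusted p = 0.00474), the plasminogen activator gene Plat by -0.94 ± 0.15 (adjusted p = 0.00613) and the membrane-type metalloproteinase gene Mmp15 by 0.45 ± 0.09 (adjusted p = 0.0122). Without 12-day unstimulated library 2, the lower counts of these 3 lists were 0, 0 and 2, and without naive library 3 they were 1, 2 and 3.

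Part of the cartilage and bone-cell genes were lower in 12-day unstimulated tendon. Cartilage genes had the lowest median of the lists with at least 1 gene called, -2.31, with 6 of 18 lower and 1 higher. Col2a1, the type II collagen of cartilage (chr15:97975602-98004695), had 5.77, 3.77 and 8.25 CPM in 12-day unstimulated tendon, against 100, 49.1 and 112 CPM in naive tendon (-3.87 ± 0.79, adjusted p = 0.0131). Acan, the gene of aggrecan, changed by -2.59 ± 0.66 (adjusted p = 0.0228), and Matn3 by -3.51 ± 0.83 (adjusted p = 0.0181). The list took 0.0296% to 0.0549% of counts in 12-day unstimulated libraries and 0.0866% to 0.181% in naive libraries. No cartilage gene was called without 12-day unstimulated library 2 or without naive library 3; 2 were called lower without 12-day unstimulated library 1, and 4 with the muscle covariate.

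Osteoblast genes had 9 of 18 lower and 0 higher (median -1.58). Bglap, which encodes osteocalcin, gave 1 read in the 12-day unstimulated libraries together and 426 in the naive libraries, a naive excess of 273-fold with a 95% counting interval of 48.8 to 10800. Bglap2, a close copy that shares reads with it, gave 0 and 251 reads and was at least 53.7-fold lower in 12-day unstimulated tendon, taking 3 counts over the group as the floor. Dlx3, a homeobox factor of bone formation, gave 2 and 74 reads (a naive excess of 23.7-fold, interval 6.34 to 200). Cthrc1 changed by -3.24 ± 0.63 (adjusted p = 0.0118), with a naive mean of 7.65 instead of 12.8 CPM without naive library 3. These intervals and floors cover counting error only. The count of lower osteoblast genes was 0 without 12-day unstimulated library 2, 1 without naive library 3 and 5 without 12-day unstimulated library 1.

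Osteoclast genes had 4 of 12 lower and 1 higher (median -0.72). Mmp9, the gelatinase of osteoclasts and neutrophils (chr2:164940780-164955850), gave the largest of the 15 leading falls. It had 0.180, 0.297 and 0.383 CPM in 12-day unstimulated tendon, against 25.8, 0.965 and 25.3 CPM in naive tendon (-5.90 ± 1.18, adjusted p = 0.0125). Naive library 2 thus lay far nearer to the 12-day unstimulated libraries than the other naive libraries did. The groups did not overlap, as the rule for the leading falls requires. The collagenase gene Mmp13 showed the same split of naive libraries, with 0.0722, 0.0847 and 0.0348 CPM in 12-day unstimulated and 6.50, 0.297 and 6.27 CPM in naive tendon (-6.04 ± 1.13, adjusted p = 0.011). Sp7, the osteoblast transcription factor osterix, chosen after its values were seen, had 0.0722, 0.0424 and 0.0348 CPM in 12-day unstimulated and 1.97, 0.148 and 1.73 CPM in naive tendon. Acp5 and Ctsk, an acid phosphatase and a collagen-degrading protease of osteoclasts, changed by -2.17 ± 0.46 (adjusted p = 0.0142) and -1.69 ± 0.42 (adjusted p = 0.0213). No osteoclast gene was called without 12-day unstimulated library 2 or naive library 3, and 3 were called lower without 12-day unstimulated library 1. How much bone or cartilage each dissection held was not tested.

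Macrophage genes fell: 15 of 20 were lower and 0 higher, with a median of -1.24. Csf1r, the receptor for the main macrophage growth factor, had 9.92, 9.79 and 12.9 CPM in 12-day unstimulated tendon, against 28.5, 31.7 and 34.7 CPM in naive tendon (-1.54 ± 0.32, adjusted p = 0.0128). Itgam, the gene of the integrin alpha chain CD11b, changed by -1.80 ± 0.40 (adjusted p = 0.0154). The chemokine receptor gene Ccr2 changed by -1.15 ± 0.25 (adjusted p = 0.0139) and the hyaluronan receptor gene Lyve1 by -1.57 ± 0.37 (adjusted p = 0.0178). Cd68, a lysosomal macrophage protein, chosen after its values were seen, stood at -0.38 ± 0.28 (adjusted p = 0.351) with overlapping groups. The list took 0.00881% to 0.0133% of counts in 12-day unstimulated and 0.0248% to 0.0330% in naive libraries. The count of lower macrophage genes was 0 without 12-day unstimulated library 2, 1 without naive library 3, 4 and 9 without 12-day unstimulated libraries 1 and 3, 7 without naive library 2 and 7 with the muscle covariate. Neutrophil genes were close to absent and none of the 6 tested was called by edgeR, with 1 at an unadjusted p under 0.05 and 2 called by DESeq2; Ly6g was at 0 in all 6 libraries. Of the 2 lymphocyte genes tested, 0 were called by edgeR or DESeq2 and 0 had an unadjusted p under 0.05.

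Red cell genes fell with little spread. Of 6 erythroid genes 5 were lower, and the median was -2.07. Hba-a1, an alpha globin gene (chr11:32283511-32284465), had 5.92, 6.19 and 6.54 CPM in 12-day unstimulated tendon, against 23.3, 28.5 and 32.2 CPM in naive tendon (-2.17 ± 0.18, adjusted p = 5.82e-05). The beta globin gene Hbb-bs had 12.7, 13.1 and 13.4 CPM in 12-day unstimulated and 45.9, 49.0 and 64.3 CPM in naive tendon (-2.02 ± 0.24, adjusted p = 0.0028). The paired genes Hba-a2 and Hbb-bt stood at -2.13 ± 0.29 and -2.29 ± 0.18; each shares reads with its near-identical partner, so that the division between partners is uncertain. All 4 globins were called in each of the 6 fits that left out a library. Tfrc, the transferrin receptor, which most dividing cells express, is also in this list and was the 1 measured member that was not called; the list, Tfrc included, took 0.0233% to 0.0259% of counts in 12-day unstimulated libraries, against 0.0313% to 0.0449% in naive libraries.

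Few endothelial, pericyte, Schwann cell and fat genes were called by edgeR. Over all genes tested 8.17% were higher and 10.6% lower, so that the counts called were near these shares or under them. Of 17 endothelial genes 1 was higher, Vwf, the von Willebrand factor gene (0.66 ± 0.15, adjusted p = 0.0164), and the list took 0.0802% to 0.102% of counts in 12-day unstimulated and 0.0781% to 0.106% in naive libraries. Pericyte and smooth muscle genes had 1 higher and 1 lower of 12. None of 4 keratinocyte genes was called by edgeR or DESeq2, with 0 at an unadjusted p under 0.05, and Krt14 and Krt15 were at 0 in all 6 libraries. Of 17 Schwann cell genes 1 was lower, Egr2 (-1.57 ± 0.31, adjusted p = 0.0119), a growth-responsive factor that other cells express too. The median of this list swung from -1.19 to 2.0 when 1 library was left out. Of 16 adipocyte genes, with a median of -0.92, edgeR called Slc2a4, which was higher, and no lower gene, while 14 lay below 0, 7 had an unadjusted p under 0.05 and 9 had every 12-day unstimulated library below every naive one; DESeq2 called 1 higher and 5 lower. Slc2a4 encodes the insulin-responsive glucose transporter that muscle also expresses. Plin1, the lipid droplet coat protein, had 13.0, 12.4 and 24.9 CPM in 12-day unstimulated and 77.3, 60.3 and 41.7 CPM in naive tendon, and missed the threshold (-1.83 ± 0.60, adjusted p = 0.0516). By edgeR, none of these lists had a call without 12-day unstimulated library 2 or without naive library 3.

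**Figure D3:**
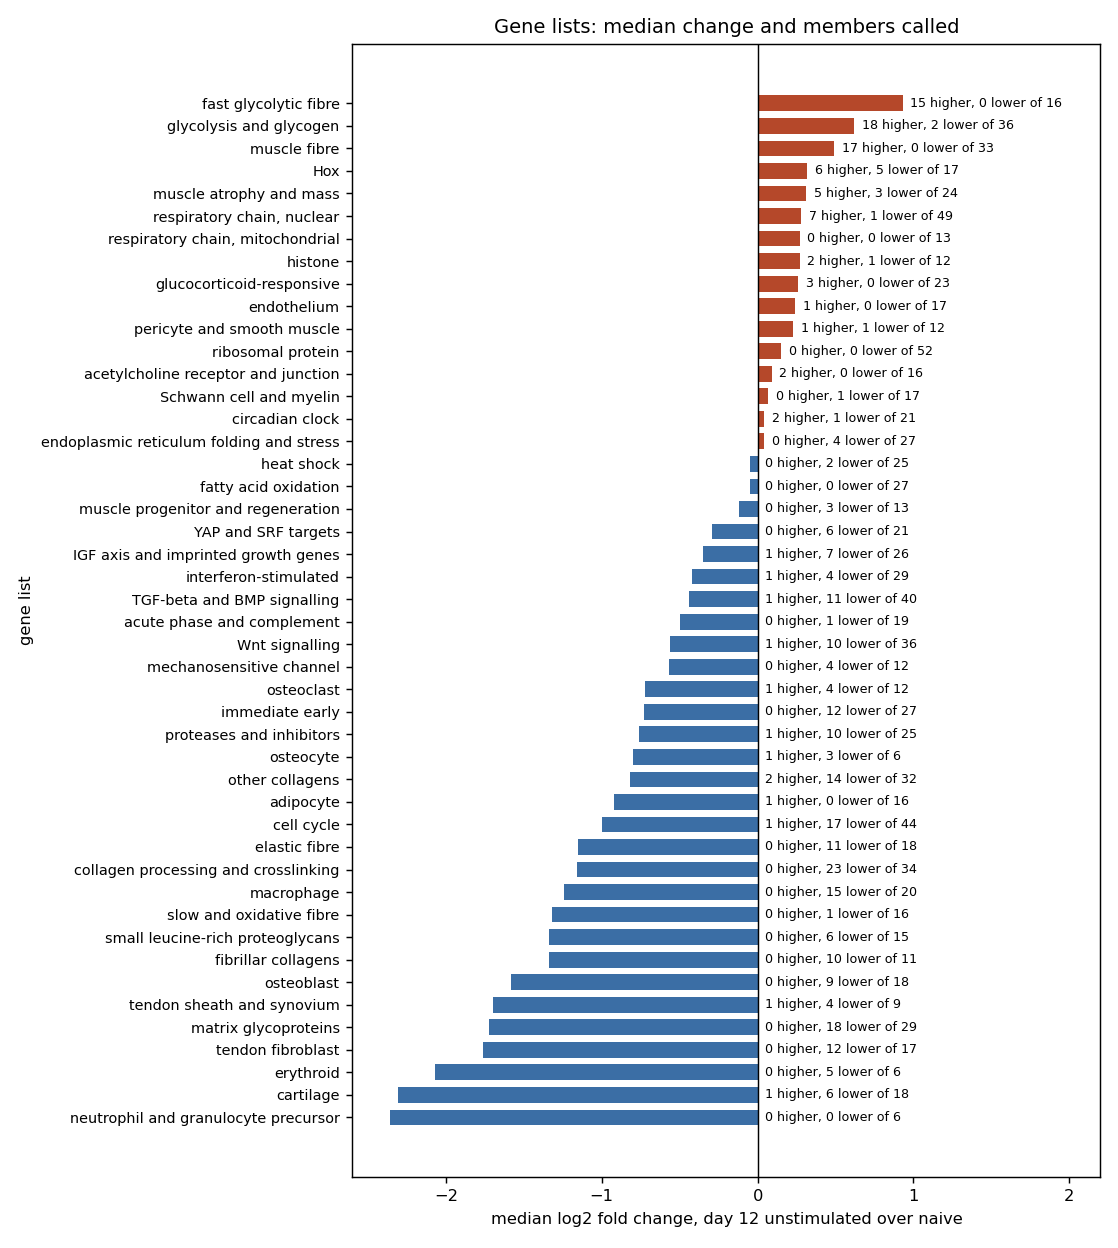
Median log2 fold change of 12-day unstimulated over naive tendon for each gene list with at least 5 genes tested, with the number called higher and lower at an adjusted p under 0.05. Cartilage, tendon fibroblast and matrix lists lie at the low end and fast fibre and glycolysis lists at the high end; over all genes tested the median is -0.03, and 8.17% were called higher and 10.6% lower.

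Part of the muscle fibre genes rose, and nearly all genes of fast glycolytic fibres did. Of 33 muscle fibre genes 17 were higher and 0 lower (median 0.49), and of 16 fast glycolytic fibre genes 15 were higher (median 0.93). Myh4, the myosin of fast IIB fibres, had 50900, 64800 and 58200 CPM in 12-day unstimulated tendon, against 35500, 20600 and 14200 CPM in naive tendon. Its fold change was 1.31 ± 0.38 (adjusted p = 0.0319), and Myh4 and the other myosin genes are given after their values were seen. Actn3, the fast-fibre actinin, changed by 1.24, and the fast troponin genes Tnnc2 and Tnni2 by 0.96 ± 0.22 (adjusted p = 0.016) and 0.87 ± 0.21 (adjusted p = 0.0178). Acta1, the actin of all skeletal fibres, changed less, by 0.52 ± 0.16 (adjusted p = 0.0428).

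No other myosin named here was called. Myh1 of IIX fibres stood at -0.48 ± 0.23 (adjusted p = 0.155), Myh2 of IIA fibres at -1.65 ± 0.77 (adjusted p = 0.145) and Myh7 of slow fibres at -1.21 ± 0.91 (adjusted p = 0.36). Slow and oxidative fibre genes had a median of -1.32, with 1 of 16 called lower. Over all genes tested 10.6% were lower, so that this count was no more than that share. The gene was Csrp3, a Z-disc mechanosensor of slow fibres. It had 126, 62.3 and 103 CPM in 12-day unstimulated and 270, 338 and 314 CPM in naive tendon (-1.66 ± 0.44, adjusted p = 0.0257). Slow-fibre levels varied among libraries of a group: Myh7 had 2580, 672 and 1300 CPM in 12-day unstimulated and 1390, 3570 and 5570 CPM in naive tendon, and its mean in 12-day unstimulated tendon was 987 instead of 1520 CPM without library 1. With the muscle covariate 6 slow fibre genes were lower (median -1.92), and Myh2 was called at -2.54 (adjusted p = 0.0221). Csrp3 was called in 2 of the 6 fits that left out a library. A change within fibres and a change in which fibres were dissected cannot be told apart. Of the muscle fibre list, 0 genes were higher without 12-day unstimulated library 2 or naive library 3, 1 without naive library 2, and 3 and 7 without 12-day unstimulated libraries 1 and 3. The number of fast fibre genes called was 0 without 12-day unstimulated library 2 or naive library 3, 2 without naive library 2, 4 and 7 without 12-day unstimulated libraries 1 and 3, and 12 with the muscle covariate.

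Glycolysis and glycogen genes were higher in part: 18 of 36 were higher, 2 lower and the median was 0.62. Slc16a3, the lactate exporter of fast muscle, had 353, 423 and 414 CPM in 12-day unstimulated tendon, against 206, 133 and 119 CPM in naive tendon (1.38 ± 0.27, adjusted p = 0.0113). The phosphorylase kinase subunit gene Phka1 changed by 1.27 ± 0.28 (adjusted p = 0.0151), the muscle isoform of phosphoglycerate mutase, Pgam2, by 1.01 ± 0.21 (adjusted p = 0.0125) and muscle glycogen phosphorylase, Pygm, by 1.05 ± 0.26 (adjusted p = 0.0189). Ubiquitous isoforms did not all move this way: Pgam1, the non-muscle mutase, was lower at -0.53, and the glycogen branching enzyme gene Gbe1 changed by -0.40 ± 0.13 (adjusted p = 0.0451). With the muscle covariate 17 glycolysis genes were higher. Without 12-day unstimulated library 2 or without naive library 3 none was, and without naive library 2 there were 4. Neither lower gene was called in any fit that left out a library. Respiratory chain genes moved by less, with 7 of 49 nuclear genes higher and a median of 0.28, among them Cycs, the gene of cytochrome c (0.53 ± 0.13, adjusted p = 0.0213). The nuclear list had no higher call without naive library 2 or 3 or 12-day unstimulated library 1 or 2, and 1 without naive library 1. None of the 13 mitochondrially encoded genes was called by edgeR (4 at an unadjusted p under 0.05, 1 called by DESeq2), nor any of 27 fatty acid oxidation genes (2 and 2).

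2 genes of glycogen and gluconeogenesis stood among the 15 leading rises. Ppp1r3c, which targets protein phosphatase 1 to glycogen and so favours glycogen synthesis (chr19:36731731-36736653), had 187, 297 and 197 CPM in 12-day unstimulated tendon, against 66.0, 60.2 and 62.1 CPM in naive tendon (1.85 ± 0.22, adjusted p = 0.0025). Fbp2, the muscle fructose bisphosphatase (chr13:62836877-62858422), had 24.9, 32.0 and 26.1 CPM in 12-day unstimulated and 9.40, 8.69 and 9.21 CPM in naive tendon (1.60 ± 0.21, adjusted p = 0.00338). Both were called in all 6 fits that left out a library, and their naive libraries lay close together.

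Amd1, Amd2 and Smox, also among the 15 leading rises, encode enzymes of polyamine metabolism, in which decarboxylated S-adenosylmethionine gives spermidine and spermine. Polyamine genes were not one of the lists, and other genes of the pathway did not all go this way. Amd1 encodes S-adenosylmethionine decarboxylase (chr10:40287458-40302186). It had 254, 294 and 207 CPM in 12-day unstimulated tendon, against 77.7, 64.1 and 50.2 CPM in naive tendon (1.98 ± 0.29, adjusted p = 0.00535). Its near-identical copy Amd2 stood at 1.92 ± 0.31, and reads shared between the 2 genes leave their separate levels uncertain. Smox, the spermine oxidase that muscle loses in atrophy (chr2:131491496-131525922), had 116, 123 and 99.0 CPM in 12-day unstimulated and 43.1, 35.0 and 30.3 CPM in naive tendon (1.64 ± 0.33, adjusted p = 0.0125), and was not called without 12-day unstimulated library 2 or naive library 3. Other pathway genes were looked up after these values were seen. Spermine synthase, Sms, was higher (0.74 ± 0.22, adjusted p = 0.0385) and spermidine synthase, Srm, lower, with 13.1, 11.7 and 12.6 CPM in 12-day unstimulated and 23.9, 22.9 and 27.7 CPM in naive tendon (-0.99 ± 0.10, adjusted p = 0.000522). Oaz1 and Oaz2, the antizymes that restrain ornithine decarboxylase, changed by 0.49 ± 0.12 (adjusted p = 0.0194) and 0.41 ± 0.13 (adjusted p = 0.0385). Srm was called in all 6 fits that left out a library, Oaz1 in 2 of them, and Sms and Oaz2 in 1 each. Odc1, the decarboxylase itself, stood at 0.24 ± 0.15 (adjusted p = 0.284) and Sat1, the spermidine acetyltransferase, at -0.10 ± 0.08 (adjusted p = 0.43).

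Of the 15 leading rises, that of Rasd2 was the largest. This small GTPase of the Ras family, known from striatum (chr8:75213944-75224113), had 12.2, 20.6 and 14.3 CPM in 12-day unstimulated tendon, against 2.84, 2.80 and 1.81 CPM in naive tendon (2.65 ± 0.39, adjusted p = 0.00526). The transcription factor gene Tfcp2l1 changed by 1.99 ± 0.32 (adjusted p = 0.00704) and the zinc exporter gene Slc30a2 by 1.84 ± 0.42 (adjusted p = 0.0164). Mylk4, a myosin light chain kinase family member, had 1140, 1590 and 1340 CPM in 12-day unstimulated and 595, 486 and 226 CPM in naive tendon (1.64 ± 0.37, adjusted p = 0.0157). Casr, the calcium-sensing receptor, stood at 1.93 ± 0.42 (adjusted p = 0.0152) and Plekhh1 at 1.5 ± 0.43 (adjusted p = 0.031), and Plekhh1 was called in 0 of the 6 fits that left out a library. Cish, a cytokine-induced inhibitor of STAT5 signalling (chr9:107296026-107302784), barely kept its groups apart, with 54.7, 17.6 and 76.9 CPM in 12-day unstimulated and 8.73, 17.5 and 8.45 CPM in naive tendon (2.11 ± 0.67, adjusted p = 0.0455), and was not called in any fit that left out a library of these groups. The class I gene H2-Q6, which shares reads with its family (1.80 ± 0.55, adjusted p = 0.0399), was called in 1 of those 6 fits. The interferon-induced chemokine gene Cxcl10 stood at 1.55 ± 0.48 (adjusted p = 0.0425) and was also called in 1 of them. Of the 30 largest changes, 8 were called in all 6 fits, 8 without 12-day unstimulated library 2, 11 without naive library 3 and 26 with the muscle covariate.

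**Figure D4:**
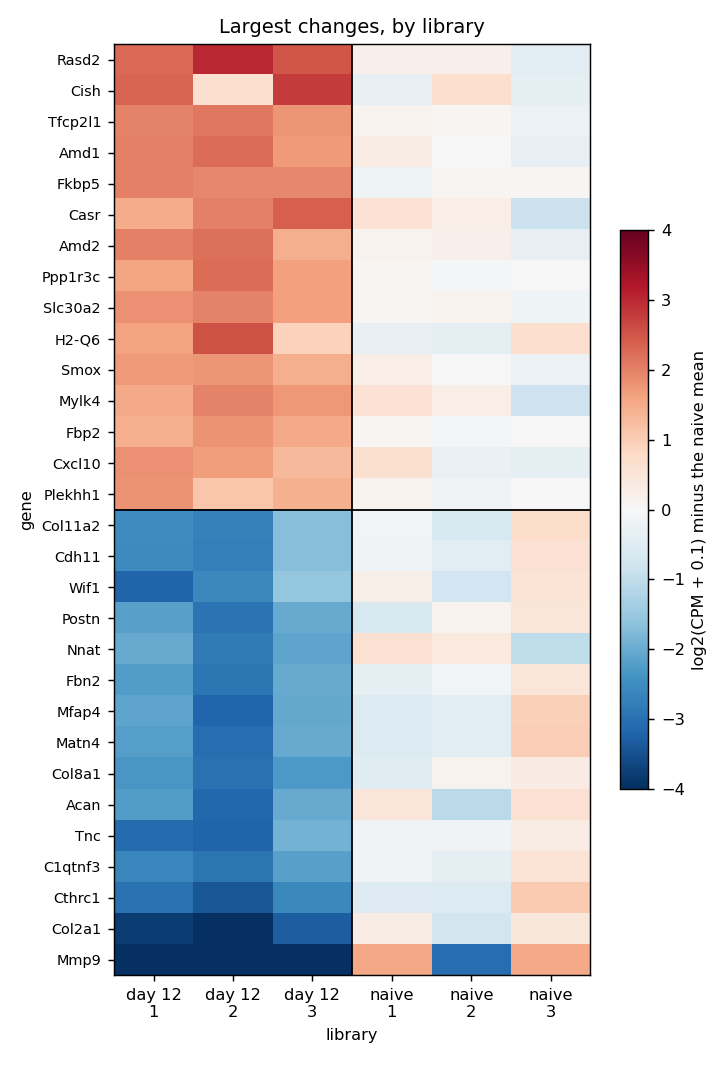
The 15 largest rises and 15 largest falls named by the rule, by library (12-day unstimulated left, naive right), as log2(CPM + 0.1) minus the mean of the naive libraries. Naive library 2 is far below the other naive libraries for Mmp9, and 12-day unstimulated library 2 is far below the other libraries of its group for Cish.

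The remaining large falls were C1qtnf3, a secreted collagen-like protein (-2.63 ± 0.53, adjusted p = 0.0125), Wif1, a secreted Wnt inhibitor (-2.39 ± 0.62, adjusted p = 0.024), Cdh11, the cadherin of mesenchymal cells (-2.36 ± 0.45, adjusted p = 0.0115), and Nnat, an imprinted membrane protein gene (-2.44 ± 0.53, adjusted p = 0.0151). Col11a2, a minor fibrillar chain, had 49.6, 43.6 and 87.8 CPM in 12-day unstimulated and 266, 185 and 477 CPM in naive tendon (-2.36 ± 0.44, adjusted p = 0.0109). For all 5 genes every 12-day unstimulated library lay below every naive library, as the rule for the largest falls requires.

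Fkbp5 was the gene with the smallest adjusted p of all. It encodes a co-chaperone that lowers hormone binding by the glucocorticoid receptor and is itself induced by glucocorticoids (chr17:28399094-28517527). Fkbp5 had 92.9, 86.3 and 86.7 CPM in 12-day unstimulated tendon, against 20.3, 24.0 and 24.1 CPM in naive tendon (1.96 ± 0.14, adjusted p = 2.46e-05). Among 23 glucocorticoid-responsive genes, 3 were higher and 0 lower, against 8.17% and 10.6% of all genes tested, with a median of 0.26. The other 2 were Zbtb16, a zinc finger factor (0.61 ± 0.15, adjusted p = 0.0172), and Fbxo32, the muscle ubiquitin ligase atrogin-1 (0.77 ± 0.19, adjusted p = 0.0181). Tsc22d3, Klf15 and Per1, chosen after their values were seen as common glucocorticoid targets, stood at 0.32 ± 0.21 (adjusted p = 0.277), 0.37 ± 0.18 (adjusted p = 0.152) and -0.30 ± 0.37 (adjusted p = 0.601). Without 12-day unstimulated library 1 or 2, or naive library 3, Fkbp5 was the 1 higher gene of the list.

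Promoter sequences are shown for 3 genes that carry the changes above: Fkbp5, the fast myosin gene Myh4 and the collagen gene Col1a2. They are from RefSeq on GRCm38.p6, 5′ to 3′ on the gene's strand, from 250 bases before the RefSeq start to 50 after it. The RefSeq starts differ from the GENCODE gene ends given in the text. Capitals mark matches on either strand to TATAAA (the TATA box), CCAAT (read as ATTGG on the other strand) and CACGTG (an E-box), and no match shown overlaps another. The windows are chr17:28486100-28486399 on the minus strand for Fkbp5, chr11:67237562-67237861 on the plus strand for Myh4 and chr6:4505368-4505667 on the plus strand for Col1a2.
Fkbp5: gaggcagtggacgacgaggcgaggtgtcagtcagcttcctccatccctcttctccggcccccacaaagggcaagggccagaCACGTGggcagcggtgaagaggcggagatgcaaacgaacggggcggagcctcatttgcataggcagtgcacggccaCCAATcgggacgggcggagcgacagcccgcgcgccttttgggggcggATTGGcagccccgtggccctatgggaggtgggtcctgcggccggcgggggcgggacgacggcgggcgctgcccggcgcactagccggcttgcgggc
Myh4: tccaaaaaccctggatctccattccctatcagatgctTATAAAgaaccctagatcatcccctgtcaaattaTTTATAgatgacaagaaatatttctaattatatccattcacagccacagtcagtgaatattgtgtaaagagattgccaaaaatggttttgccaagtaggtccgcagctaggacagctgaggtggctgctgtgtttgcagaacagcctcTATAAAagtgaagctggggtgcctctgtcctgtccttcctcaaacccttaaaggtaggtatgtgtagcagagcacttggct
Col1a2: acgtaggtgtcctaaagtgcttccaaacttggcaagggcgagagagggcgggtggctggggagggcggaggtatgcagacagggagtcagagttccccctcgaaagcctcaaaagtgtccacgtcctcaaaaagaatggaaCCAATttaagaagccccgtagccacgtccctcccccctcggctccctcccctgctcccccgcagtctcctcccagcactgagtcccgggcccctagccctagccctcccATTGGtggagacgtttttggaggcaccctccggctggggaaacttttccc
Myh4 held TATAAA 31 bases before its start and at 2 more places, 179 and 213 bases before it. Fkbp5 held CCAAT 46 and 93 bases before its start and CACGTG 169 bases before it. Col1a2 held CCAAT 109 bases before its start and at the start itself. These are matches of letters in a window, not binding sites. Of 11720 tested genes with a promoter in this table, 9.33% held TATAAA, 42.3% CCAAT and 11.3% CACGTG on either strand; the shares were 9.81%, 43.9% and 10.6% among 979 higher genes and 9.58%, 38.7% and 11.3% among 1368 lower genes. The glucocorticoid pattern was held by 0.452% of these tested genes, 0.817% of the higher (8 genes) and 0.365% of the lower (5 genes).

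Immediate early genes, which respond to stimuli within minutes, were lower in part. Of 27 such genes 12 were lower and 0 higher (median -0.73). Egr1, a zinc finger factor that also drives collagen genes in tendon, had 23.2, 28 and 21.7 CPM in 12-day unstimulated tendon, against 49.4, 89.7 and 86.4 CPM in naive tendon (-1.63 ± 0.36, adjusted p = 0.0161). Egr3 changed by -1.51 ± 0.25 (adjusted p = 0.00704), Fosl1 by -2.21 ± 0.40 (adjusted p = 0.0101) and Fos by -1.67 ± 0.34 (adjusted p = 0.0128). Heat shock genes had 2 of 25 lower and endoplasmic reticulum genes 4 of 27 lower, with medians of -0.05 and 0.04. Over all genes tested 10.6% were lower, so that these counts were near that share. Among the endoplasmic reticulum genes Sec61a1, the channel through which secreted proteins enter, changed by -0.74 ± 0.10 (adjusted p = 0.00471) and the disulfide isomerase gene Pdia3 by -0.68 ± 0.12 (adjusted p = 0.00962). Interferon-stimulated genes had 1 higher and 4 lower of 29, and acute phase genes 1 lower of 19, against 8.17% higher and 10.6% lower of all genes. These 2 lists and the heat shock list had no call without 12-day unstimulated library 2 or without naive library 3. The count of lower immediate early genes was 0 without 12-day unstimulated library 2 and 2 without naive library 3.

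Growth factor pathways had more genes lower than higher. Of 40 TGF-beta and BMP genes 11 were lower and 1 higher (median -0.44): the activin gene Inhba changed by -1.49 ± 0.28 (adjusted p = 0.0104), the receptor gene Tgfbr2 by -0.77 ± 0.15 (adjusted p = 0.0116) and the receptor gene Acvr1 by -0.64 ± 0.13 (adjusted p = 0.0119). Of 36 Wnt genes 10 were lower and 1 higher (median -0.56). Wnt16 gave 0 reads in 12-day unstimulated and 96 in naive libraries, at least 20.5-fold lower, and Wnt5b changed by -1.43 ± 0.28 (adjusted p = 0.0118). The insulin-like growth factor gene Igf1 had 18.8, 12.3 and 21 CPM in 12-day unstimulated and 43.0, 45.8 and 48.1 CPM in naive tendon (-1.39 ± 0.32, adjusted p = 0.0166). Its list of 26 genes had 7 lower and 1 higher, and its imprinted members Mest and Plagl1 changed by -1.61 ± 0.30 (adjusted p = 0.011) and -0.96 ± 0.20 (adjusted p = 0.0135), while Igf2 and H19, chosen after their values were seen, stood at -0.08 ± 0.36 and -0.13 ± 0.22. Across the fits that left out a library, the lower counts were 0 to 10 for the TGF-beta list, 0 to 8 for the Wnt list and 0 to 4 for the growth factor list, and no gene of the 3 lists was called without 12-day unstimulated library 2.

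Of 21 YAP and SRF targets, which report tension on the cell, 6 were lower and 0 higher (median -0.29), with Tpm4 at -0.85 ± 0.16 (adjusted p = 0.0104) and Ccn1 at -1.33 ± 0.35 (adjusted p = 0.025). Of 12 mechanosensitive channel genes 4 were lower. Piezo2, the touch channel, had 2.56, 3.09 and 4.91 CPM in 12-day unstimulated and 12.3, 10.8 and 16.8 CPM in naive tendon (-1.91 ± 0.45, adjusted p = 0.0174), and the polycystin genes Pkd1 and Pkd2 changed by -0.81 ± 0.20 (adjusted p = 0.0181) and -1.04 ± 0.30 (adjusted p = 0.0308). Neither list had a call without 12-day unstimulated library 2 or without naive library 3.

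Genes of muscle mass and innervation gave mixed calls. In the atrophy list 5 of 24 were higher and 3 lower (median 0.31), where 8.17% of all genes tested were higher and 10.6% lower. Besides Smox and Fbxo32, the ankyrin repeat ligase gene Asb2 was higher (0.88 ± 0.19, adjusted p = 0.0137), as was Mstn, the myostatin gene, with 23.1, 26.9 and 29.7 CPM in 12-day unstimulated and 17.2, 8.22 and 7.84 CPM in naive tendon (1.26 ± 0.36, adjusted p = 0.0324), which was picked after its values were seen. The RING-finger ligase gene Trim63 stood at 0.47 ± 0.29 (adjusted p = 0.255). Myogenin, Myog, a factor of muscle differentiation and denervation, was lower, with 18.4, 14.6 and 15.9 CPM in 12-day unstimulated and 27.3, 33.9 and 39.6 CPM in naive tendon (-1.05 ± 0.25, adjusted p = 0.0177). Pax7, the satellite cell factor, changed by -0.46 ± 0.13 (adjusted p = 0.0299). At the neuromuscular junction Ache, the acetylcholinesterase gene, changed by 1.25 ± 0.32 (adjusted p = 0.0237) and the sodium channel gene Scn4a by 0.75 ± 0.20 (adjusted p = 0.0249), the 2 of 16 that were called, and the receptor subunit gene Chrna1 stood at 1.09 ± 0.43 (adjusted p = 0.0915). None of these lists had a call without 12-day unstimulated library 2 or without naive library 3.

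Proliferation genes were lower in part: of 44 cell cycle genes 17 were lower and 1 higher, with a median of -1.0. The replication helicase gene Mcm6 had 8.23, 6.02 and 7.03 CPM in 12-day unstimulated tendon, against 10.7, 13.3 and 17.8 CPM in naive tendon (-0.97 ± 0.17, adjusted p = 0.0086). Mcm5 changed by -1.5 ± 0.30 (adjusted p = 0.0122) and the S-phase factor gene E2f1 by -0.93 ± 0.20 (adjusted p = 0.0139). Mki67, the proliferation antigen, chosen after its values were seen, had 5.56, 4.41 and 5.40 CPM in 12-day unstimulated and 6.07, 8.64 and 22.5 CPM in naive tendon, and its naive mean was 7.35 instead of 12.4 CPM without naive library 3. Without that library 1 gene of the list was lower, without 12-day unstimulated library 2 none, without 12-day unstimulated libraries 1 and 3 there were 6 and 5, without naive library 2 there were 8, and without naive library 1 the count was 31. None of 52 ribosomal protein genes was called by edgeR, with 15 at an unadjusted p under 0.05, and 7 were by DESeq2; their median was 0.15.

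Of 21 clock genes 2 were higher and 1 lower, against 8.17% and 10.6% of all genes tested, so that the share called was near that of all genes. Arntl, the clock activator BMAL1 (chr7:113207465-113314126), had 5.77, 5.55 and 4.77 CPM in 12-day unstimulated tendon, against 2.49, 2.23 and 2.7 CPM in naive tendon (1.12 ± 0.23, adjusted p = 0.0125). Nfil3, a repressor of D-box genes (chr13:52967209-52981073), had 16.0, 16.4 and 19.9 CPM in 12-day unstimulated and 9.77, 8.39 and 8.97 CPM in naive tendon (0.95 ± 0.17, adjusted p = 0.00942). Hlf, a D-box activator, changed by -0.61 ± 0.17 (adjusted p = 0.0262), and was the 1 lower gene. Per2, Nr1d1 and Dbp, chosen after their values were seen, stood at -0.05 ± 0.11, -0.23 ± 0.18 and -0.28 ± 0.18. Nfil3 was called in all 6 fits that left out a library; Arntl was not called without 12-day unstimulated library 2 or naive library 3, and Hlf in none of the 6.

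Positional Hox genes, which keep the code of limb segments in connective tissue, went in both directions, with 6 of 17 called higher and 5 lower. Hoxd8 had 31.7, 38.3 and 34.4 CPM in 12-day unstimulated and 19.1, 20.0 and 21.2 CPM in naive tendon (0.79 ± 0.17, adjusted p = 0.014), and its neighbour Hoxd10 stood at 0.83 ± 0.21 (adjusted p = 0.0202). Hoxa9 and Hoxa10 changed by -0.39 ± 0.09 (adjusted p = 0.0163) and -0.35 ± 0.09 (adjusted p = 0.0206). Hoxd11, chosen after its values were seen, had under 1 CPM in all 6 libraries and changed by -2.19 ± 0.61 (adjusted p = 0.0285). Without 12-day unstimulated library 2 or naive library 3 no gene of the list was called.

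The unstimulated libraries labelled day 5 show how far these differences were present in that group. The comparisons of day 5 and of day 12 with naive tendon share the naive libraries, so that values are set side by side only. In 5-day unstimulated against naive tendon 4 genes were higher (0.0234%) and 2 lower (0.0117%), or 0.0351% in either direction, by edgeR, with 1870 at an unadjusted p under 0.05. Library 3 of the 5-day group lay at -48.4 on the first principal component, among the naive libraries. Direct comparison of 12-day with 5-day unstimulated tendon gave 0 genes higher and 4 lower (0.0234%) by edgeR, with 2097 at an unadjusted p under 0.05, and 49 higher and 89 lower by DESeq2. Without 5-day library 3, 1 gene was higher and 3 lower, and without 12-day library 2, 2 were lower.

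The 4 genes that differed between the days were the globins. Hba-a1 had 23.3, 28.5 and 32.2 CPM in naive tendon, 38.4, 30.7 and 33.5 CPM in 5-day unstimulated tendon and 5.92, 6.19 and 6.54 CPM in 12-day unstimulated tendon. The 12-day group was lower than the 5-day group by a log2 fold change of -2.46 ± 0.18 for Hba-a1 (adjusted p = 4.07e-05), -2.39 ± 0.18 for Hbb-bt (adjusted p = 4.61e-05), -2.28 ± 0.30 for Hba-a2 (adjusted p = 0.0173) and -2.23 ± 0.24 for Hbb-bs (adjusted p = 0.00311). Naive and 5-day libraries thus overlapped or lay close, and the 12-day libraries lay below all of them. The rule that named these genes for day 12 against day 5 requires that gap from the 5-day libraries.

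Several other genes followed different courses by their values. Fkbp5 had 20.3 to 24.1 CPM in naive, 72.5 to 91.5 CPM in 5-day and 86.3 to 92.9 CPM in 12-day unstimulated tendon, and 5-day tendon already differed from naive tendon by 1.89 ± 0.14 (adjusted p = 3.86e-05). Ppp1r3c had 60.2 to 66.0, 136 to 206 and 187 to 297 CPM at these days, and 5-day tendon differed from naive by 1.43 ± 0.22 (adjusted p = 0.0481). Amd1 had 50.2 to 77.7, 72.7 to 130 and 207 to 294 CPM, a difference of 1.31 ± 0.29 between day 12 and day 5 that did not pass (adjusted p = 0.244). For Mmp9, 5-day libraries lay at 23.6 to 61.4 CPM, where naive libraries lay at 0.965 to 25.8 CPM, and the log2 difference of day 12 from day 5 was -7.06 ± 1.19 (adjusted p = 0.101). Tnmd, with 78.0 to 154, 24.4 to 84.7 and 20.1 to 46.0 CPM, and Col1a1, with 7330 to 19400, 2510 to 7710 and 1610 to 4760 CPM, stood between the outer groups at day 5, and neither passed the test between day 12 and day 5 (adjusted p = 0.645 for Tnmd and 0.627 for Col1a1). The stimulated tendon of day 12, set against the same naive libraries, had 2026 genes higher (11.8%) and 2143 lower (12.5%); Fkbp5 stood at 1.42 ± 0.13 there, Tnmd at -1.81 ± 0.62, Col1a1 at -2.11 ± 0.61 and Myh4 at 1.19 ± 0.38.

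Calcaneus labelled unstimulated at day 12 gave a different picture for the matrix genes. The change from naive to 12-day unstimulated was compared between tendon and bone by an interaction over 12 libraries, with 18707 genes tested. The tendon change lay above the bone change for 1426 genes (7.62%) and below it for 2181 (11.7%). This split depended on scaling: with DESeq2 size factors in edgeR, 2006 lay above and 1952 below. Without 12-day unstimulated tendon library 2, 865 lay above, and without naive bone library 2, 932. In bone alone 1627 genes were higher (8.7%) and 2527 lower (13.5%), together 22.2%. Without naive bone library 2 these were 778 and 1356, without 12-day unstimulated bone library 3 they were 1045 and 1524, and without library 1 of that group 1658 were lower. Of the 1390 genes higher in tendon and tested in bone, 103 were higher (7.41%) and 95 lower in bone, with a bone median of 0.12. Of the 1809 lower in tendon 348 were lower (19.2%) and 295 higher in bone, with a bone median of -0.02; both comparisons of a tissue use their own naive libraries.

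Tendon fibroblast genes moved apart between the tissues. Their median was -1.76 in tendon and 1.06 in bone, 14 of 17 had a tendon change below the bone change, and 6 were called higher in bone. Tnmd changed by 1.38 ± 0.48 in bone (adjusted p = 0.0706), a tendon minus bone difference of -3.49 ± 0.69 (adjusted p = 0.00831), and Mkx by 0.59 ± 0.30, a difference of -2.6 ± 0.43 (adjusted p = 0.00236). Matrix glycoproteins had medians of -1.72 in tendon and 0.71 in bone, with 24 of 29 differing, and elastic fibre genes -1.15 and 0.59, with 16 of 18 differing. The type I collagen genes were no clear part of this: the difference was -1.54 ± 0.56 for Col1a1 (adjusted p = 0.0807) and -1.54 ± 0.56 for Col1a2 (adjusted p = 0.0802).

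The 5 genes named by the rule for a tendon change below bone were Mmp9, Prg4, Angptl7, Lyve1 and Ecrg4. Prg4, the lubricin of joint and sheath surfaces, had 2730, 5140 and 3370 CPM in 12-day unstimulated bone, against 549, 411 and 630 CPM in naive bone, and its tissue difference was -4.62 ± 0.45 (adjusted p = 0.00023). Lyve1 had 46.3, 44.5 and 46.2 CPM in 12-day unstimulated and 10.1, 6.19 and 12.4 CPM in naive bone (tissue difference -3.80 ± 0.32, adjusted p = 0.000155). Both thus rose in bone, where in tendon Lyve1 fell and Prg4 was not called. Those named for a tendon change above bone were Bpgm, a red cell mutase, Cd24a, a glycoprotein of marrow progenitors, Fn3k, Car2 and Smox. Smox had 34.4, 38.5 and 37.4 CPM in 12-day unstimulated bone and 60.9, 70.4 and 81.5 CPM in naive bone, where it fell, so that its tissue difference was 2.61 ± 0.20 (adjusted p = 9.6e-05). Amd1 differed likewise (2.17 ± 0.22, adjusted p = 0.00023), and was not called in bone (-0.17 ± 0.15, adjusted p = 0.457).

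Some changes were alike in direction in both tissues. Fkbp5 had 66.5, 51.0 and 55.9 CPM in 12-day unstimulated bone and 37.0, 40.3 and 30.9 CPM in naive bone (0.68 ± 0.12, adjusted p = 0.0032), a smaller rise than in tendon by 1.3 ± 0.17 (adjusted p = 0.000625). Ppp1r3c rose in bone by 1.13 ± 0.29 (adjusted p = 0.0206). Erythroid genes had medians of -2.07 in tendon and -2.28 in bone, where all 11 tested were lower; Hba-a1 changed by -2.20 ± 0.39 in bone, with a tissue difference of 0.05 ± 0.54 (adjusted p = 0.972). Cell cycle genes were all 44 lower in bone, with a median of -1.71. Fast fibre genes had medians of 0.93 in tendon and 0.87 in bone, but none was called in bone, where the levels were far lower: Myh4 had 66.5, 105 and 189 CPM in 12-day unstimulated and 12.5, 105 and 11.1 CPM in naive bone.

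**Figure D5:**
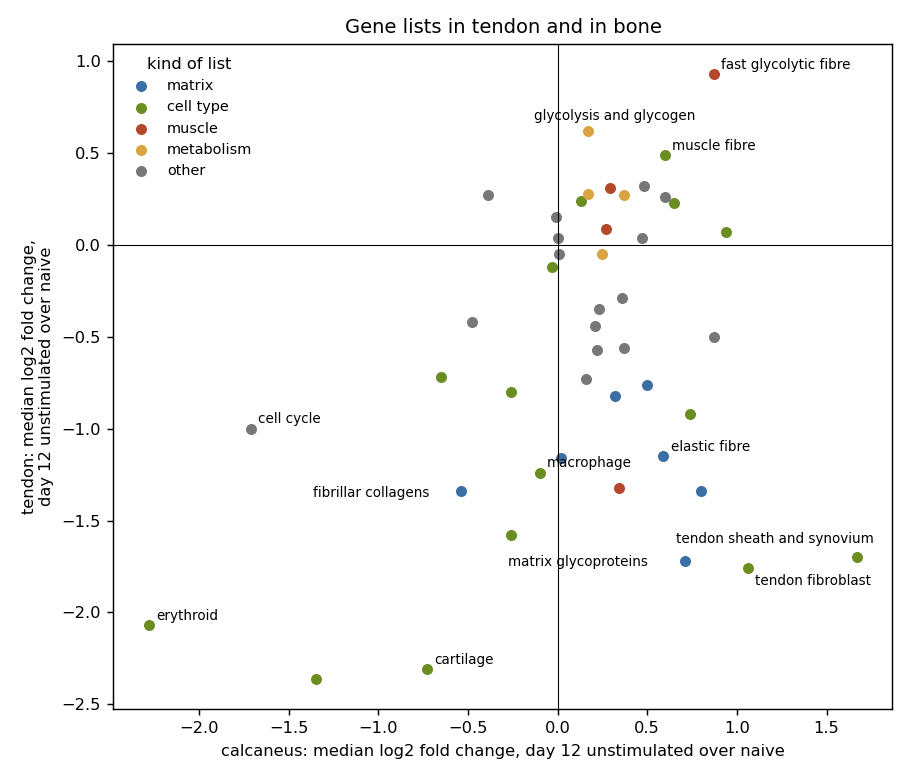
Median log2 fold change of 12-day unstimulated over naive samples for each gene list with at least 5 genes tested in both tissues: tendon on the vertical axis, calcaneus on the horizontal axis, coloured by kind of list. Tendon fibroblast genes lie at -1.76 in tendon and 1.06 in bone, erythroid genes at -2.07 and -2.28, and fast fibre genes at 0.93 and 0.87.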

How the data were processed

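Per the labels' protocols, RNA extracted with a PureLink kit went into libraries selected for poly-A. The submitters' processing notes list cutadapt 2.3, FastQC 0.11.8, MultiQC 1.7, STAR 2.7.8a, RSEM 1.3.3 and the build GRCm38. No source used here names the annotation release or the strand setting, so overlapping and antisense genes may share reads. The values the authors deposited are RSEM expected counts for each gene, all of them whole numbers, which divide the reads of near-identical genes by an estimate. Of 55426 rows, 55240 (99.7%) matched GENCODE M21 by ID. All sample columns were mapped.

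Counts were tested with edgeR 4.0.16 (R 4.3.3): TMM scaling, filterByExpr (minimum count 10, minimum total 15), a robust quasi-likelihood fit over all 15 tendon libraries in 5 groups, and Benjamini-Hochberg adjustment over all genes tested, with a threshold of 0.05. The comparison of tissues used 12 libraries. Values after ± beside a log2 fold change are standard errors. CPM were computed with TMM-scaled library totals. Alternatives were DESeq2 1.42.0, its size factors, no count filter, a replicate block, a fit restricted to these 6 libraries, limma-voom (limma 3.58.1), a muscle covariate and leaving out each library; a test against a log2 change of 0.5 and a fit without 5-day library 3 were added after seeing the data. The tests were checked on simulated counts.

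The comparison, the 48 lists and the rules were chosen with earlier results of these data known. Named are the 15 largest rises and falls among called genes whose groups do not overlap and whose mean is at least 5 CPM, leaving out predicted genes; Scx, Mkx, Tnmd, Thbs4, Fmod, Comp, Col1a1, Col1a2, Col3a1, Tnc and Acta1; up to 4 members of each list by adjusted p; and 5 in each direction for the other contrasts. Members named beyond these were chosen after their values were seen. Some lists share members.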

Additional observations from a re-analysis of the deposited data

Results flagged for a closer look

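Listed first are the 10 genes named for a change from naive to 12-day unstimulated samples that differed between tendon and calcaneus. The rule that named them requires a call in the edgeR interaction test and tendon groups that do not overlap. That all 10 passed is therefore no separate result. The tendon minus bone difference of the log2 fold change was 2.82 for Bpgm (adjusted p = 0.00493), 2.82 for Cd24a (adjusted p = 0.000447), 2.69 for Fn3k (adjusted p = 0.00122), 2.62 for Car2 (adjusted p = 0.00566) and 2.61 for Smox. It was -5.12 for Mmp9 (adjusted p = 0.026), -4.62 for Prg4, -4.26 for Angptl7 (adjusted p = 0.00645), -3.80 for Lyve1 and -3.64 for Ecrg4 (adjusted p = 0.00489). Car2, Prg4 and Angptl7 were not called within tendon alone, at 0.51 ± 0.20 (adjusted p = 0.0871), -1.82 ± 0.60 (adjusted p = 0.0509) and -1.73 ± 0.83 (adjusted p = 0.153). Angptl7 had a mean of 264 CPM in 12-day unstimulated tendon and 164 CPM without library 3 of that group. Within bone, Bpgm had 30.6, 39.4 and 42.3 CPM in 12-day unstimulated and 85.4, 88.0 and 241 CPM in naive samples, so that naive bone library 3 stood apart.

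The 4 globin genes differed between 12-day and 5-day unstimulated tendon, and so in their change from naive. The log2 differences were -2.46 for Hba-a1, -2.39 for Hbb-bt, -2.28 for Hba-a2 and -2.23 for Hbb-bs. They were the only genes called by edgeR between these days, and the rule that named them requires that call.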

How the results depend on the processing

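For 12-day unstimulated against naive tendon, leaving out a library gave 43 to 1913 higher and 42 to 2364 lower genes, against 1397 and 1812 with all; the highest counts came without 5-day library 3, a fit added after seeing the data. Higher counts were 861 with no count filter, 2267 with only the 6 libraries and 2861 with limma-voom, which gave 3267 lower; 1201 were lower with the muscle covariate. A test against a log2 change of 0.5, also added after seeing the data, called 14 higher and 28 lower. For day 12 against day 5 (0 higher, 4 lower), DESeq2 gave 49 and 89, limma-voom 253 and 255, the replicate block 3 and 8, and no filter 2 higher; leaving out a library gave 0 to 1 higher and 2 to 3 lower. For tendon minus bone, DESeq2 gave 2392 above, no filter 871, and leaving out a library 865 to 1490; in bone the range was 778 to 1788 higher and 1356 to 2499 lower. The cause of these shifts was not tested. Same-numbered 12-day unstimulated and naive tendon libraries deviated from their group means with correlations of -0.081, -0.005 and -0.092. Libraries of unlike number gave -0.113 to 0.178. With 3 libraries a group, and without the other groups, such values cannot decide whether the numbers mark pairs. The replicate block gave 1696 higher and 2168 lower genes. The lymphocyte median, from 2 genes, was 0.34 and changed sign, at -0.41 without naive library 2 or 12-day unstimulated library 2, -0.34 without 12-day library 1 and -0.51 without 12-day library 3, and reached 0.60 without naive library 1.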
